A study of Mus musculus with 6 samples.

Results

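Integrins are the paired alpha and beta chains by which cells hold on to the matrix around them, and laminins are the alpha, beta and gamma chains of the main matrix molecule that many integrins bind. The genes were chosen by name, with earlier results of these data known, from protein-coding genes of the GENCODE M21 annotation. They were named as an integrin alpha (Itga and a number or letter), integrin beta (Itgb) or laminin chain (Lama, Lamb or Lamc). Described here are 36 of 21836 protein-coding genes, out of 53390 genes of every type with a value. They comprised 18 integrin alpha chains, 8 integrin beta chains and 10 laminin chains.

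Polyadenylated RNA was sequenced from TKO mouse embryonic stem cells, a line in which Dnmt1, Dnmt3a and Dnmt3b, the genes of the DNA methyltransferases, were inactivated, to see how such hypomethylated cells respond to 2i medium. The line descends from male J1 cells of the 129S4/SvJae strain and whether the libraries came from several clones was not stated. There were 2 groups of 3 libraries, and all 6 libraries share the triple knockout, so no comparison with methylated cells was possible here. TKO-serum cells grew in medium with 15% foetal calf serum and 500 U/ml of LIF, a cytokine that keeps stem cells undifferentiated. TKO-2i cells grew for 14 days in serum-free N2B27 medium with 1000 U/ml of LIF, 1 µM of the MEK inhibitor PD0325901 and 3 µM of the Gsk3 beta inhibitor CHIR99021. Serum, LIF dose and both inhibitors changed together, so their parts cannot be told apart. Estimated counts totalled 46228700, 44180642 and 43896549 in the TKO-2i libraries and 38274042, 51932739 and 44827609 in the TKO-serum libraries. The labels call the 3 libraries of a group biological replicates without saying that they were separate cultures, so p-values measure the spread between these libraries.

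A laminin is a cross-shaped trimer of an alpha, a beta and a gamma chain, secreted and then linked into sheets that form the base of a basement membrane, to which type IV collagen, nidogens and perlecan are added. An integrin is a pair of chains spanning the cell membrane: the alpha chain largely sets which ligand is bound, and the tails of the beta chain recruit talin, kindlin and other adaptors to the actin cytoskeleton. In the early mouse embryo the first basement membranes are built on laminins with the Lamb1 and Lamc1 chains, and embryonic stem cells attach to laminin mainly through the integrin made of the Itga6 and Itgb1 chains.

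Levels are given as TPM, a unit which accounts for transcript length and so allows genes to be compared with each other, and differences as log2 fold changes of TKO-2i over TKO-serum from edgeR's quasi-likelihood test on counts, called at a Benjamini-Hochberg adjusted p under 0.05 over all 18177 genes tested. Of the 36 integrin and laminin genes, 29 passed edgeR's filter on low counts and 7 did not. Among those tested, 20 were called (69.0%), beside 62.5% of all genes tested. There were 6 called higher in TKO-2i, where 31.9% of all genes were called higher, and 14 called lower, where 30.6% were. With an absolute log2 fold change of at least 1 as well, 7 were called (24.1%), beside 23.3% among all genes. The median log2 fold change of those tested was -0.22, and that of all genes 0.01. Those 7 were the 3 laminin beta chains, the laminin alpha chain Lama2 and the integrin alpha chains Itga1, Itga8 and Itga9. Itga1, Itga8 and Lama2 each had a TKO-2i library under 10 counts and passed the filter through TKO-serum, where they were higher. The direction of their change is thus not independent of the filter. As these are bulk libraries, fewer cells of a kind and less RNA per cell cannot be told apart in any of these values.

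The laminin beta chains exchanged places. Lamb1 (ENSMUSG00000002900; chromosome 12, 31265234 to 31329644, plus strand), the beta chain of the early embryo's laminins, stood at 4.26, 5.73 and 5.06 TPM in TKO-2i and at 43.0, 47.7 and 46.2 TPM in TKO-serum. Its 3 TKO-2i values lay far below the lowest TKO-serum value, and the level was 8.90-fold lower on counts. Lamb2 (ENSMUSG00000052911; chromosome 9, 108479736 to 108490530, plus strand), the beta chain best known from kidney and muscle basement membranes, went the other way, with 26.0, 31.3 and 24.0 TPM in TKO-2i and 9.84, 10.3 and 12.5 TPM in TKO-serum. The conditions did not overlap, and the level was 2.75-fold higher in TKO-2i, a change of 1.46 on the log2 scale (standard error 0.05, edgeR adjusted p = 1.5e-07). As a share of the summed TPM of the beta chains, Lamb1 made up 13.6, 15.1 and 17.1% in TKO-2i and 78.3, 80.7 and 76.2% in TKO-serum, and Lamb2 made up 82.9, 82.6 and 81.0% and 17.9, 17.4 and 20.6%. The leading beta transcript was thus Lamb2 in each TKO-2i library and Lamb1 in each TKO-serum library. Since Lamb1 fell by more TPM than Lamb2 gained, the beta chains together summed to 33.0 ± 4.36 TPM in TKO-2i and 58.3 ± 2.93 TPM in TKO-serum (SD, n = 3).

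Lamb3 (ENSMUSG00000026639; chromosome 1, 193207699 to 193343878, plus strand), the beta chain of the laminin under stratified epithelia, was scarce, with 44, 44 and 45 estimated counts in TKO-2i and 117, 169 and 133 in TKO-serum. On counts it was lower in TKO-2i without overlap, a change of -1.58 on the log2 scale (standard error 0.13, edgeR adjusted p = 1.2e-05). Its TPM of 1.12, 0.855 and 0.565 in TKO-2i and 2.12, 1.09 and 1.97 in TKO-serum overlapped, and a 258-base noncoding transcript with 0 to 3.28 counts supplied up to 65.1% of it. With counts rebuilt from length-scaled TPM the Lamb3 fold change was -0.93 (edgeR adjusted p = 0.035), smaller than on counts as deposited.

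Primitive and parietal endoderm, cells that secrete laminin and type IV collagen in quantity, can arise in stem cell cultures, and their markers moved with Lamb1. Of 11 markers, all tested, 10 were called lower in TKO-2i (30.6% of all genes were) and Gata4 was not called, with a log2 change of -0.17 (edgeR adjusted p = 0.26). With length-scaled TPM counts Gata4 was called lower, at -0.54 (edgeR adjusted p = 0.017), and Sox17 lost its call, at -0.46 (edgeR adjusted p = 0.059) from -0.56 (edgeR adjusted p = 0.012). Sox17 was also not called without TKO-serum replicate 2, at -0.49 (edgeR adjusted p = 0.056). The summed level of the markers was 5.53, 6.56 and 5.90 TPM in TKO-2i and 21.3, 24.5 and 26.9 TPM in TKO-serum. The most abundant in TKO-serum, the endocytic adaptor Dab2, averaged 0.288 TPM in TKO-2i and 6.72 TPM in TKO-serum. In TKO-2i the most abundant was Gata4, with a mean of 2.41 TPM in TKO-2i and 3.75 TPM in TKO-serum. No marker was at 0 in all libraries, and Foxa2 and Thbd stayed under 1 TPM on average in both conditions. In TKO-serum the whole list summed to less TPM than Lamb1 alone, which decides nothing on its source, as Lamb1 per cell of this kind was not measured. The part of these cells in the fall of Lamb1 was not tested.

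Since the beta chain genes moved in opposite directions, the bases before their starts are shown, from RefSeq on GRCm38.p6, with GC boxes in capitals. The searched letters were the GC box GGGCGG, which reads as CCGCCC on the other strand, the TCF/LEF core CTTTGA, which reads as TCAAAG, and the GATA core AGATAA, which reads as TTATCT. The Lamb1 stretch is chr12:31265043-31265292 and the Lamb2 stretch chr9:108479612-108479861, both on the plus strand, 250 bases each, ending at the base before the RefSeq start. The GENCODE gene starts given above lie within both stretches.
Lamb1: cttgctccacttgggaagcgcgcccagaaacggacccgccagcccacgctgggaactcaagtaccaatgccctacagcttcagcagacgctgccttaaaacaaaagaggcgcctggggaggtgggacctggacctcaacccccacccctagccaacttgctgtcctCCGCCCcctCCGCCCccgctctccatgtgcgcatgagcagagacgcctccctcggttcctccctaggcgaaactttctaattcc
Lamb2: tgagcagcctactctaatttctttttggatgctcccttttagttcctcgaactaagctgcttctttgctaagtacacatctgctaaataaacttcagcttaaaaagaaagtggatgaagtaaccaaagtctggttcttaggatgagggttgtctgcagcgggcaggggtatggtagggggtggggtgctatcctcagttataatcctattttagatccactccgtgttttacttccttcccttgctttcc
The Lamb1 stretch held 2 GC boxes and 14 CpG dinucleotides, and the Lamb2 stretch held 0 and 3, where the median over all 32851 stretches of this length was 6 CpG. Neither held the other letters. A GC box was found in 32.7% of all stretches, the TCF/LEF core in 13.8% and the GATA core in 9.99%. RefSeq entries matched 23 of the 36 genes, with 26 stretches, of which 9 held a GC box, 4 the TCF/LEF core and 1 the GATA core. These are matches of letters and not binding sites.

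The laminin alpha chains, which carry the globular domains that integrins and dystroglycan bind, held their balance. Lama5 (ENSMUSG00000015647; chromosome 2, 180176373 to 180225859, minus strand), the alpha chain of most adult basement membranes, was the most abundant, with 41.4, 40.1 and 40.9 TPM in TKO-2i and 46.2, 42.3 and 51.1 TPM in TKO-serum. Its log2 fold change was -0.16 (standard error 0.08) and was not called (edgeR adjusted p = 0.12), though it was called without TKO-2i replicate 2, at -0.23 (edgeR adjusted p = 0.0083). Lama1 (ENSMUSG00000032796; chromosome 17, 67697259 to 67822647, plus strand), the alpha chain of the first embryonic laminin, had 25.7, 29.0 and 26.3 TPM in TKO-2i and 32.5, 33.3 and 34.2 TPM in TKO-serum. That small fall was outside the spread of the replicates, with a log2 change of -0.29 (edgeR adjusted p = 0.0019). Lama5 made up 60.2, 56.6 and 59.5% of the summed alpha chain TPM in TKO-2i and 58.1, 55.2 and 59.2% in TKO-serum, and Lama1 most of the rest. Lama3 (ENSMUSG00000024421; chromosome 18, 12333819 to 12583013, plus strand), an alpha chain found under stratified epithelia, rose from 0.724, 0.641 and 0.696 TPM in TKO-serum to 1.18, 1.29 and 1.11 TPM in TKO-2i, a log2 change of 0.89 (edgeR adjusted p = 0.00013). Lama4 and Lama2, known from vessels and muscle, stayed under 1 TPM. Lama4 was higher in TKO-2i on 86, 86 and 77 against 31, 63 and 51 counts, a log2 change of 0.86 (edgeR adjusted p = 0.0025). Lama2 was lower on 10, 10 and 6 against 14, 39 and 28 counts, a log2 change of -1.54 (edgeR adjusted p = 0.0049), a call that was lost with length-scaled TPM counts (-0.60, edgeR adjusted p = 0.43).

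Among the gamma chains, Lamc1 (ENSMUSG00000026478; chromosome 1, 153218922 to 153332786, minus strand), the chain shared by most laminins, was at the highest TPM of the laminin genes described, with 83.0, 107 and 91.3 TPM in TKO-2i and 98.3, 107 and 98.9 TPM in TKO-serum. These values overlapped, and the log2 fold change of -0.06 (standard error 0.06) was not called (edgeR adjusted p = 0.4). It was called without TKO-2i replicate 2, at -0.11 (edgeR adjusted p = 0.031). Lamc3 stayed under 1 TPM, with 15, 10 and 19 counts in TKO-2i and 13, 11 and 19 in TKO-serum, and was not called (log2 fold change 0.09, edgeR adjusted p = 0.84). The summed TPM of the alpha chains was 69.5 ± 1.22 in TKO-2i and 80.9 ± 4.98 in TKO-serum (SD, n = 3), above that of the beta chains in each of the 6 libraries.

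**Figure D1:**
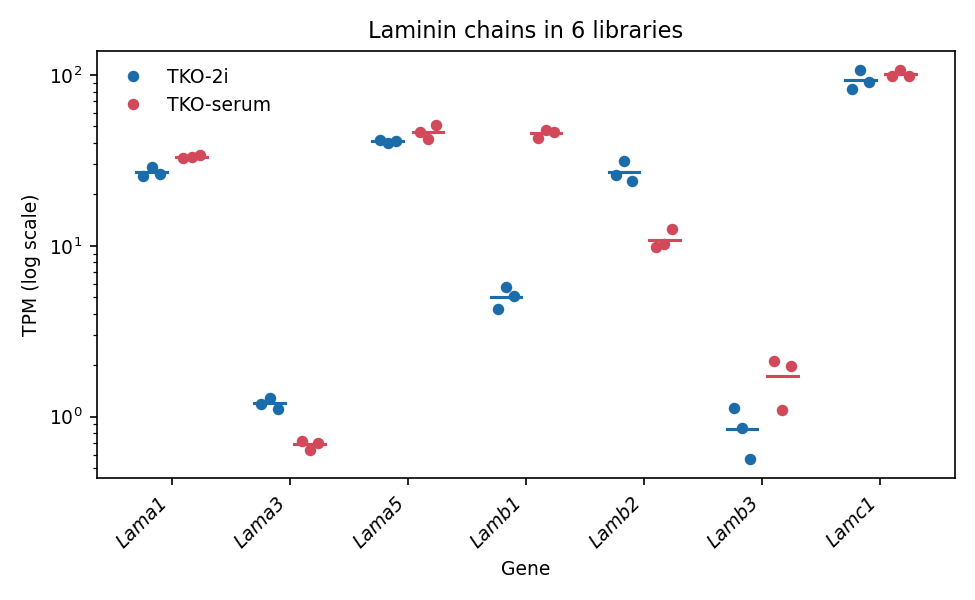
Levels of the 7 laminin genes with a mean of at least 1 TPM in a condition, on a log axis, as points for the 3 TKO-2i (blue) and 3 TKO-serum (red) libraries and bars for their means. Lamb1 lies at 4.26, 5.73 and 5.06 TPM in TKO-2i, below all TKO-serum points, and Lamb2 at 26.0, 31.3 and 24.0 TPM, above them.

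On the receptor side, Itgb1 and Itga6, which together bind laminin, were the most abundant chains in TPM. Itgb1 (ENSMUSG00000025809; chromosome 8, 128685654 to 128733200, plus strand), the beta chain that pairs with most alpha chains, had 61.8, 69.7 and 58.2 TPM in TKO-2i and 77.6, 86.8 and 82.1 TPM in TKO-serum. All 3 TKO-2i values were below the TKO-serum values, with a log2 change of -0.31 (standard error 0.06, edgeR adjusted p = 0.0021). Itga6 (ENSMUSG00000027111; chromosome 2, 71745616 to 71858416, plus strand), which with Itgb1 forms a laminin receptor known from embryonic stem cells, had 52.7, 63.7 and 50.5 TPM in TKO-2i and 60.8, 74.3 and 69.1 TPM in TKO-serum. The values of the conditions overlapped, and the call at a log2 change of -0.22 (edgeR adjusted p = 0.042) lay near the threshold. It was kept with DESeq2, at -0.24 (DESeq2 adjusted p = 0.013), and with length-scaled TPM counts, at -0.20 (edgeR adjusted p = 0.029). It was lost without TKO-2i replicate 1, at -0.20 (edgeR adjusted p = 0.086), and without TKO-2i replicate 3, at -0.18 (edgeR adjusted p = 0.13). It was also lost without TKO-serum replicate 2, at -0.17 (edgeR adjusted p = 0.14), and without TKO-serum replicate 3, at -0.23 (edgeR adjusted p = 0.097). Limma on log2(TPM + 1) gave -0.29 (limma adjusted p = 0.051). Itga3 (ENSMUSG00000001507; chromosome 11, 95044474 to 95076801, minus strand), the other widely used laminin-binding alpha chain, had 11.2, 13.3 and 9.19 TPM in TKO-2i and 8.53, 9.71 and 9.30 TPM in TKO-serum. It was called higher on counts, at a log2 change of 0.35 (edgeR adjusted p = 0.014), while its TPM overlapped and limma on log2(TPM + 1) gave 0.25 (limma adjusted p = 0.14). Length-scaled TPM counts kept the Itga3 call, at 0.38 (edgeR adjusted p = 0.0053). Itga7, the laminin-binding chain of muscle, was near 1 TPM, with 0.608, 0.996 and 0.943 TPM in TKO-2i and 1.22, 1.16 and 1.26 TPM in TKO-serum. Its log2 fold change of -0.53 (edgeR adjusted p = 0.013) was no longer called without TKO-serum replicate 3, at -0.46 (edgeR adjusted p = 0.055). The call was also lost with length-scaled TPM counts, at -0.43 (edgeR adjusted p = 0.062), and with limma on log2(TPM + 0.1), at -0.50 (limma adjusted p = 0.07). Itgb4, which pairs with Itga6 in the hemidesmosomes of epithelia, had 412, 394 and 387 counts in TKO-2i and 444, 564 and 520 counts in TKO-serum. Its level was 1.70, 1.88 and 1.82 TPM in TKO-2i and 3.84, 4.0 and 2.50 TPM in TKO-serum, without overlap. It was called lower, with a log2 change of -0.29 on counts (edgeR adjusted p = 0.0056) and -0.85 (edgeR adjusted p = 0.0024) with length-scaled TPM counts, and the short noncoding transcript Itgb4-206, with at most 8.64 counts, held up to 30.4% of its TPM.

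The integrins that bind the RGD motif of fibronectin, vitronectin and osteopontin made up the next group. Itga5 (ENSMUSG00000000555; chromosome 15, 103344286 to 103366763, minus strand), the fibronectin receptor's alpha chain, had 14.6, 17.1 and 11.2 TPM in TKO-2i and 13.6, 14.9 and 14.9 TPM in TKO-serum, and was not called (log2 fold change 0.14, edgeR adjusted p = 0.22). The sign of this difference was negative with limma on TPM, and the gene was called without TKO-2i replicate 3, its lowest library, at 0.24 (edgeR adjusted p = 0.015). Itgav (ENSMUSG00000027087; chromosome 2, 83724397 to 83806916, plus strand), which pairs with several beta chains, had 15.1, 18.9 and 14.5 TPM in TKO-2i and 12.7, 13.9 and 11.5 TPM in TKO-serum. It was higher in every TKO-2i library than in any TKO-serum library, by a log2 change of 0.31 (standard error 0.08, edgeR adjusted p = 0.0073). Its beta partners diverged. Itgb5 (ENSMUSG00000022817; chromosome 16, 33829665 to 33949338, plus strand), the second beta chain by level, had 12.4, 13.7 and 12.1 TPM in TKO-2i and 17.7, 19.1 and 17.6 TPM in TKO-serum, a fall without overlap of -0.42 on the log2 scale (edgeR adjusted p = 0.00011). Itgb3 (ENSMUSG00000020689; chromosome 11, 104608000 to 104670476, plus strand) had 3.08, 3.70 and 2.63 TPM in TKO-2i and 2.25, 2.89 and 2.59 TPM in TKO-serum, called higher on counts at 0.37 (edgeR adjusted p = 0.0092) but not with limma on log2(TPM + 1), at 0.21 (limma adjusted p = 0.2). Length-scaled TPM counts kept the Itgb3 call, at 0.37 (edgeR adjusted p = 0.012). Itgb6 and Itgb8, the partners known for activating latent TGF-beta, were too low to test. Itgb6 had at most 5 counts in any library, and Itgb8 had 0, 0 and 0 counts in TKO-2i and 10, 6 and 11 in TKO-serum. Itga2b, the platelet chain that pairs with Itgb3, had 1.05, 1.48 and 0.979 TPM in TKO-2i and 1.95, 1.74 and 1.54 TPM in TKO-serum. Its log2 fold change of -0.35 (edgeR adjusted p = 0.058) was not called, although it was called without TKO-serum replicate 2, at -0.45 (edgeR adjusted p = 0.04). It was called lower with several other settings too. These were DESeq2 size factors, at -0.37 (edgeR adjusted p = 0.048), at least 10 counts in every library, at -0.39 (edgeR adjusted p = 0.035), and length-scaled TPM counts, at -0.50 (edgeR adjusted p = 0.039). Limma gave -0.34 (limma adjusted p = 0.031) on log2(TPM + 1) and -0.55 (limma adjusted p = 0.041) on log2(TPM + 0.1). Itga8, of kidney and smooth muscle, was under 1 TPM and lower in TKO-2i on 14, 7 and 12 against 38, 77 and 63 counts, a log2 change of -2.33 (edgeR adjusted p = 0.00014), a call lost with length-scaled TPM counts (-0.94, edgeR adjusted p = 0.07).

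Of the genes called in these groups, Itga3, Itgb3 and Itgb4 lie on chromosome 11, as do Itga2b and Itgae. The 1399 genes tested on that chromosome shifted by a median of 0.26, on the log2 scale, against -0.11 to 0.05 on the 13 other chromosomes that hold integrin or laminin genes. The gains of Itga3 (0.35, standard error 0.10) and Itgb3 (0.37, standard error 0.10) had the sign of that median. They were larger by no more than about their standard errors. The other 3 did not go with it: Itgb4 was called lower, Itga2b had a negative difference and Itgae one near 0. Chromosome 6, which holds no integrin or laminin gene, had a higher median, 0.41. The tetraspanin gene Cd9, described below, lies on it. The cause was not tested.

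The largest change among integrins with at least 1 TPM was that of Itga9 (ENSMUSG00000039115; chromosome 9, 118606690 to 118901003, plus strand), an alpha chain that binds tenascin, osteopontin and thrombospondin. It had 2.53, 3.85 and 1.88 TPM in TKO-2i and 7.81, 8.33 and 9.66 TPM in TKO-serum. The highest TKO-2i library lay under the lowest TKO-serum library, and the level was 3.74-fold lower on counts, a change of -1.90 on the log2 scale (standard error 0.12, edgeR adjusted p = 2.7e-06). Its relative Itga4, which binds fibronectin and VCAM, was under 1 TPM and not called (log2 fold change -0.21, edgeR adjusted p = 0.6).

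Some chains known from leukocytes were detected in these libraries. Itgb7 (ENSMUSG00000001281; chromosome 15, 102215995 to 102231944, minus strand), the lymphocyte homing chain, was the third beta chain by level, with 7.57, 10.1 and 9.13 TPM in TKO-2i and 14.7, 15.0 and 17.2 TPM in TKO-serum. It was lower in every TKO-2i library, with a log2 change of -0.43 (standard error 0.07, edgeR adjusted p = 0.00086) on counts and -0.72 (edgeR adjusted p = 0.00018) with length-scaled TPM counts. Its known partners Itga4 and Itgae stayed under 1 TPM, and Itgae was not called, at 0.03 (edgeR adjusted p = 0.88). Itgal (ENSMUSG00000030830; chromosome 7, 127296260 to 127335138, plus strand), the alpha chain of LFA, had 3.99, 4.38 and 3.54 TPM in TKO-2i and 3.43, 4.19 and 4.25 TPM in TKO-serum and was not called (log2 fold change 0.11, edgeR adjusted p = 0.26). The beta chain it pairs with in leukocytes, Itgb2, had only 4, 5 and 4 counts in TKO-2i and 6, 16 and 8 in TKO-serum and was not tested. Itgam, the alpha chain of myeloid cells, was under 1 TPM and lower in TKO-2i on 53, 56 and 65 against 90, 149 and 126 counts, a log2 change of -0.99 (edgeR adjusted p = 0.00052). Itgax and Itgad had at most 4 counts in a library. Leukocyte markers were set beside these chains. Their summed level was 84.3, 101 and 94.6 TPM in TKO-2i and 49.4, 60.1 and 58.3 TPM in TKO-serum, of which Laptm5, a lysosomal protein, averaged 62.8 and 30.7 TPM. Cd68, a lysosomal protein of macrophages, had a mean of 27.9 TPM in TKO-2i and 20.7 TPM in TKO-serum (log2 fold change 0.52, edgeR adjusted p = 0.00039). Lower in TKO-2i, as Itgb7 and Itgam were, were the B cell marker Cd79a, with a mean of 0.376 TPM in TKO-2i and 2.37 TPM in TKO-serum (log2 fold change -2.54, edgeR adjusted p = 2.3e-06), and the macrophage receptor gene Csf1r, with a mean of 0.00447 TPM in TKO-2i and 0.0911 TPM in TKO-serum (log2 fold change -4.10, edgeR adjusted p = 0.00039). The part of such cells was not tested. The defining marker Ptprc had at most 0.0503 TPM and Tyrobp at most 0.0625 TPM in any library. Cd3e, of the same list, had a mean of 2.10 TPM in TKO-2i and 2.08 TPM in TKO-serum. It was not called (log2 fold change 0.02, edgeR adjusted p = 0.89).

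The collagen-binding alpha chains had means under 1 TPM. Itga10 came closest to 1 TPM, with 0.589, 1.08 and 1.32 TPM in TKO-2i and 0.880, 0.882 and 0.968 TPM in TKO-serum, and was not called (log2 fold change 0.26, edgeR adjusted p = 0.15). Itga1 was lower in TKO-2i on 12, 8 and 12 against 54, 87 and 85 counts, a log2 change of -2.73 (edgeR adjusted p = 1.6e-05). Itga2 had 0, 0 and 0 counts in TKO-2i and 0, 2 and 2 in TKO-serum, and Itga11 had 7, 7 and 5 and 2, 3 and 5, both too few to test. A count of 0 in a library allows up to 3 counts, or 0.0564 to 0.0778 CPM at these depths, for counting error only.

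**Figure D2:**
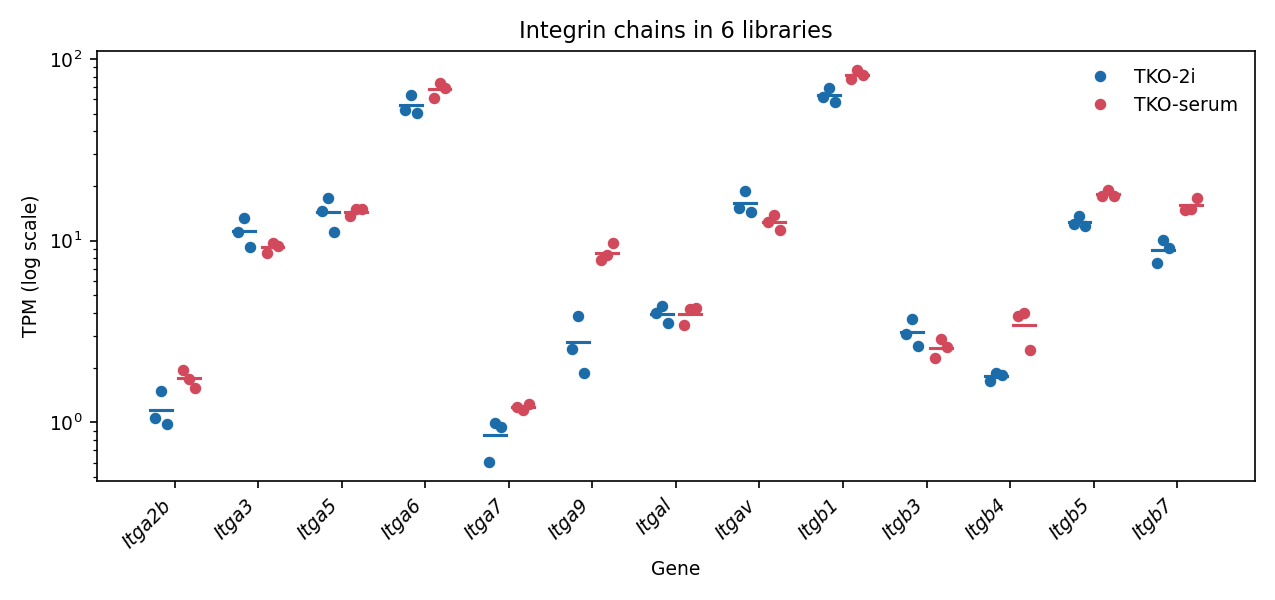
Levels of the 13 integrin genes with a mean of at least 1 TPM in a condition, on a log axis, as points for the 3 TKO-2i (blue) and 3 TKO-serum (red) libraries and bars for their means. Itgb1 and Itga6 lie highest in both conditions, and Itga9 lies at 2.53, 3.85 and 1.88 TPM in TKO-2i, below its TKO-serum points.

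On the TPM scale, Itga6 and Itgb1 led the integrin alpha and beta chains in every library. Itga6 held 50.9, 50.4 and 53.0% of the summed alpha chain TPM in TKO-2i and 53.8, 56.4 and 55.3% in TKO-serum. Itgav held 14.6, 14.9 and 15.2% and 11.2, 10.5 and 9.18%, and Itga9 2.44, 3.05 and 1.97% and 6.91, 6.32 and 7.74%, the alpha chains whose shares moved most. Itgb1 held 71.4, 70.3 and 69.4% of the beta chain TPM in TKO-2i and 66.7, 67.8 and 67.2% in TKO-serum. That gain in share stood beside a called fall of Itgb1 itself, since the other beta chains together fell by a larger proportion, and on CPM the difference in share was -0.448 points in place of 3.07. Summed, the integrin alpha chains had 108 ± 16.1 TPM in TKO-2i and 123 ± 9.42 TPM in TKO-serum, and the beta chains 89.9 ± 8.14 and 122 ± 5.81 TPM (SD, n = 3).

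**Figure D3:**
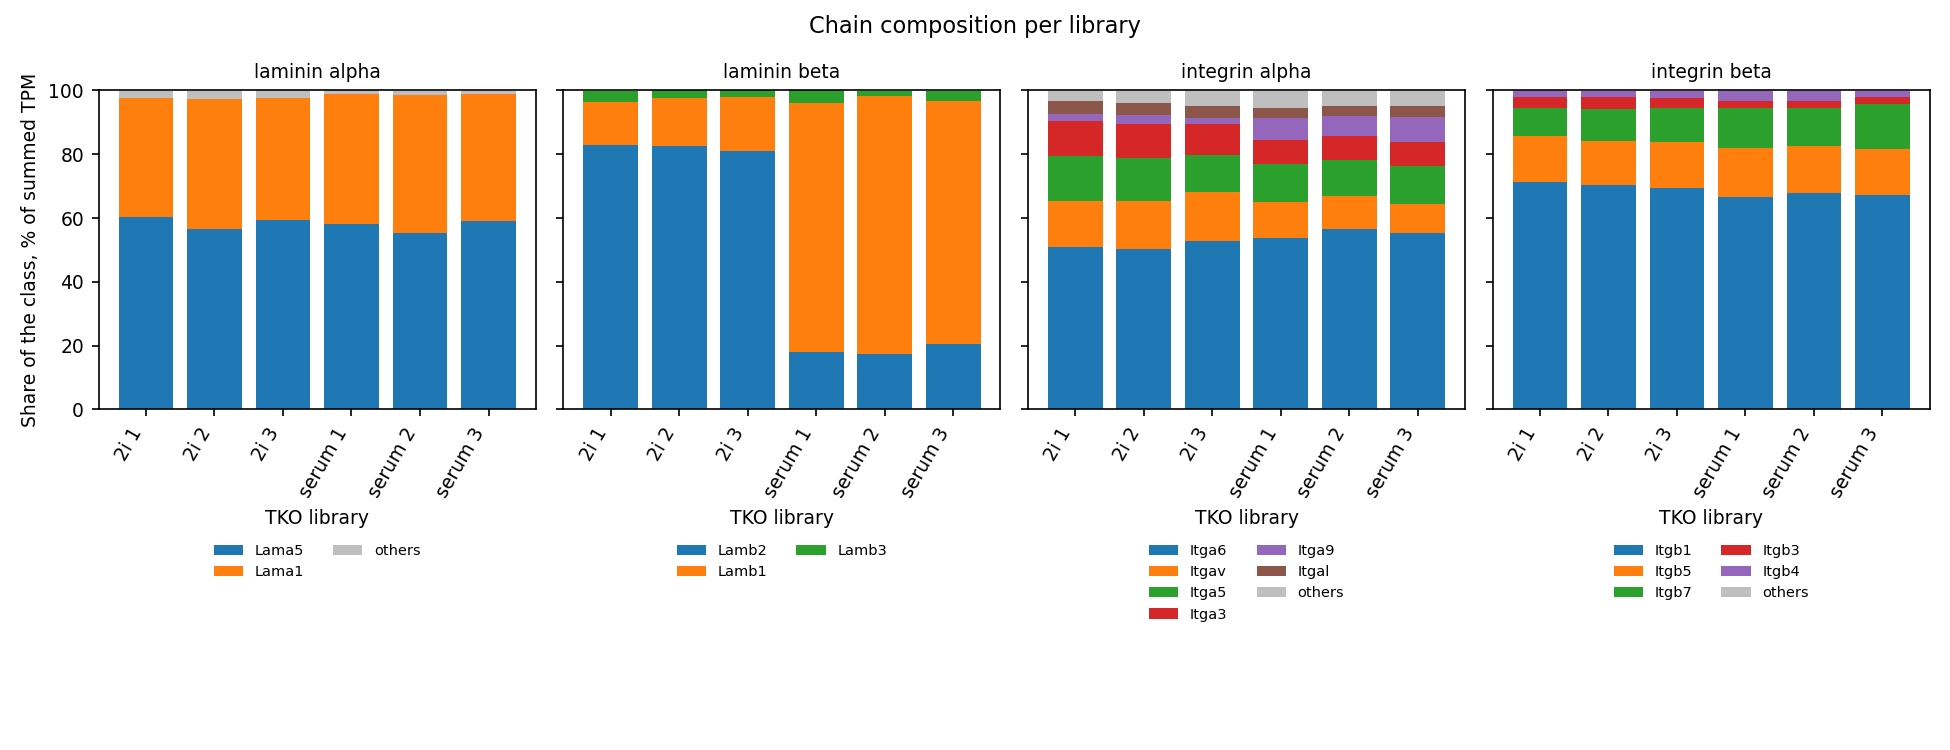
Share of each chain in the summed TPM of its class, in percent, as stacked bars for the 3 TKO-2i and 3 TKO-serum libraries; chains under 2% in both conditions are pooled as others. Lamb2 holds 82.9, 82.6 and 81.0% of the laminin beta class in TKO-2i and 17.9, 17.4 and 20.6% in TKO-serum, while the other classes keep their leading chain.

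The deposited values are per transcript, so the makeup of each gene could be compared. In the 20 genes with a mean of at least 1 TPM in a condition, 45 transcripts held at least 10% of their gene's TPM in a condition, and 1 of them differed by at least 10 percentage points without overlap. The rule was not applied to transcripts of other genes, so whether that count is high or low is not known. The count also depended on single libraries. It was 4, 2 and 9 without TKO-2i replicates 1, 2 and 3, and 3, 1 and 6 without TKO-serum replicates 1, 2 and 3. With 3 libraries a group the smallest p of the exact two-sided permutation test is 0.1, so it could not pass 0.05. In Itgb7, the full-length coding transcript Itgb7-201 held 93.8, 81.0 and 70.6% in TKO-2i and 66.2, 67.1 and 63.1% in TKO-serum (exact permutation p = 0.1). As shares of counts the difference was 3.14 points for Itgb7-201, and no transcript of the 20 genes met the rule.

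No transcript of the abundant Itga6 met the rule. Its coding transcript Itga6-202 held 41.4, 43.3 and 40.7% of the TPM in TKO-2i and 41.2, 43.6 and 41.6% in TKO-serum, and the noncoding Itga6-203, of a few exons at the gene's far end, held 53.2, 51.8 and 54.1% and 52.8, 52.0 and 54.5%. Coding transcripts thus supplied 44.4% to 47.9% of the Itga6 TPM, a share that the gene's level above does not separate. For Lamb1 this range was 83.2% to 98.8%, for Lamb2 74.7% to 85.8%, for Lamc1 98.6% to 99.5% and for Itgb1 95.2% or more. For Lama5 it was wider, 61.0% to 97.4%. It was 54.2% to 87.4% for Itga9, 52.8% to 96.1% for Itgb4, 18.7% to 82.7% for Lamb3 and 23.8% to 33.2% for Itga2b. Most Lamb1 and Lamb2 TPM thus came from coding transcripts in every library.

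Several of these genes are neighbours, within 100 kb of each other. Itga1 and Itga2 lie 21 kb apart on chromosome 13, both scarce. On chromosome 7, Itgam, Itgax and Itgad follow one another at 11.1 and 3.72 kb, the first called lower and the others untested. Exon bases are shared with another gene in 12 of the 36 genes, none of them Lamb1, Lamb2, Lamc1, Itga6, Itga9 or Itgb1. In Itga4 the partner on the other strand, Cerkl, had more counts than Itga4 itself, so the level of Itga4 is uncertain.

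Several, but not all, of the partners with which laminin builds a basement membrane fell along with Lamb1. Of 13 genes in this list, 10 were tested, and 8 were called (80%, beside 62.5% of all genes), 1 higher and 7 lower (31.9% and 30.6% of all genes), with a median log2 fold change of -1.81 beside 0.01 for all genes. That median depended on the scale and the filter, at -0.29 with limma on log2(TPM + 1), -1.04 with limma on log2(TPM + 0.1) and -0.96 among the 8 genes with at least 10 counts in every library. The medians of all genes in those fits were -0.06, -0.08 and 0.01. Col4a1 and Col4a2, the chains of the common type IV collagen, had 2.70, 3.19 and 2.51 and 1.03, 1.25 and 0.929 TPM in TKO-2i. In TKO-serum they had 23.5, 24.3 and 22.4 and 9.01, 9.17 and 8.85 TPM. Their log2 fold changes were nearly equal, -2.95 (standard error 0.06, edgeR adjusted p = 1.6e-08) and -2.95 (standard error 0.07, edgeR adjusted p = 2.7e-08). Col18a1, the collagen that is the source of endostatin and the most abundant of the list in TKO-serum, went from 162, 179 and 171 TPM in TKO-serum to 16.6, 17.6 and 16.6 TPM in TKO-2i, a change of -3.12 on the log2 scale (standard error 0.06, edgeR adjusted p = 1.6e-08). Hspg2, which encodes perlecan, had 13.2, 19.3 and 16.4 TPM in TKO-2i and 49.6, 54.9 and 53.5 TPM in TKO-serum, a change of -1.55 on the log2 scale (standard error 0.08, edgeR adjusted p = 1.1e-06). With all libraries and condition alone in the edgeR fit, the only gene of the list called higher was Nid1. It encodes a nidogen that links laminin to collagen through the gamma chain, and was singled out after its values were seen. Nid1 had 76.5, 91.6 and 73.6 TPM in TKO-2i and 34.7, 37.9 and 37.7 TPM in TKO-serum (log2 fold change 1.14, edgeR adjusted p = 2.4e-06). Other abundant partners moved little. Sparc, a collagen-binding matrix protein, had a mean of 166 TPM in TKO-2i and 162 TPM in TKO-serum and was not called (log2 fold change 0.14, edgeR adjusted p = 0.083). Agrn, the proteoglycan agrin, had a mean of 52.5 TPM in TKO-2i and 60.2 TPM in TKO-serum and was not called (log2 fold change -0.10, edgeR adjusted p = 0.18). Without TKO-2i replicate 2 both were called, Sparc higher at 0.20 (edgeR adjusted p = 0.0029) and Agrn lower at -0.16 (edgeR adjusted p = 0.013). Nid2, the other nidogen, had a mean of 106 TPM in TKO-2i and 139 TPM in TKO-serum and was called lower by a small amount (log2 fold change -0.28, edgeR adjusted p = 0.00068). The endoderm markers given above fell with the collagens too, and their part in the result was not tested.

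Of 19 other integrin ligands, 14 were tested, and 13 were called (92.9%, beside 62.5% of all genes), 4 higher and 9 lower (31.9% and 30.6% of all genes), with a median of -1.09. With limma on TPM, at either pseudocount, 10 were called, 2 higher and 8 lower, with medians of -0.39 for log2(TPM + 1) and -0.70 for log2(TPM + 0.1). Those fits called 10048 and 10043 of all 18177 genes, with medians of -0.06 and -0.08. The most abundant, Spp1 (osteopontin, bound by integrins with Itgav or Itga9), rose slightly, from 259.5, 269.6 and 261 TPM in TKO-serum to 286, 315 and 276 TPM in TKO-2i (log2 fold change 0.23, edgeR adjusted p = 0.0035), and that call was lost with limma on log2(TPM + 1), at 0.15 (limma adjusted p = 0.061). The largest rises were those of Fn1 (fibronectin, the ligand of Itga5), with a mean of 235 TPM in TKO-2i and 160.1 TPM in TKO-serum (log2 fold change 0.65, edgeR adjusted p = 3.2e-05), and Mfge8, a ligand of integrins with Itgav, with a mean of 67.1 TPM in TKO-2i and 37.9 TPM in TKO-serum (log2 fold change 0.94, edgeR adjusted p = 4.1e-05). The genes called lower ranged from scarce ones such as Thbs1 to Icam1, a ligand of leukocyte integrins, with a mean of 30.5 TPM in TKO-2i and 47.1 TPM in TKO-serum (log2 fold change -0.51, edgeR adjusted p = 0.00011). Thbs1, a thrombospondin, was at 0.0172, 0.0301 and 0.0539 TPM in TKO-2i and 1.38, 1.55 and 1.28 TPM in TKO-serum, a change of -5.26 on the log2 scale (standard error 0.24, edgeR adjusted p = 5.4e-07). Ccn1, a matricellular protein listed under its older symbol Cyr61, had 1.56, 1.49 and 1.75 TPM in TKO-2i and 7.77, 8.52 and 8.42 TPM in TKO-serum, a change of -2.25 on the log2 scale (standard error 0.11, edgeR adjusted p = 6.6e-07). Npnt, a basement membrane ligand of Itga8, had 0.395, 0.477 and 0.426 TPM and 1.43, 2.15 and 1.62 TPM, a change of -1.91 on the log2 scale (standard error 0.15, edgeR adjusted p = 1.1e-05). Madcam1, the ligand of Itgb7 on lymphoid vessels, had 0.840, 0.622 and 0.596 TPM and 2.67, 2.85 and 3.25 TPM, a change of -1.88 on the log2 scale (standard error 0.22, edgeR adjusted p = 9.6e-05).

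Laminin receptors outside the integrin family, with the enzymes that put the laminin-binding sugar on dystroglycan, changed by small amounts. All 15 were tested, and 14 were called (93.3%, beside 62.5% of all genes), 11 higher and 3 lower (31.9% and 30.6% of all genes), with a median of 0.37. At an absolute log2 fold change of at least 1, 0 were called, beside 23.3% of all genes. With limma on TPM, at either pseudocount, 9 were called, 6 higher and 3 lower. Of all 18177 genes, 10048 were called with limma on log2(TPM + 1) and 10043 on log2(TPM + 0.1). Dag1, dystroglycan itself and the most abundant in TKO-2i, had 63.9, 77.4 and 60.4 TPM in TKO-2i and 53.8, 60.7 and 55.8 TPM in TKO-serum (log2 fold change 0.32, edgeR adjusted p = 0.00072), and was not called with limma on log2(TPM + 1), at 0.23 (limma adjusted p = 0.077). Pomgnt1 and Pomt1, enzymes of that sugar, rose by 0.75 (edgeR adjusted p = 5.8e-06) and 0.61 (edgeR adjusted p = 4.2e-05) on the log2 scale, and Pomt1 was not called with limma on log2(TPM + 1), at 0.27 (limma adjusted p = 0.076). With length-scaled TPM counts both rises were smaller, 0.47 for Pomgnt1 (edgeR adjusted p = 0.00092) and 0.38 for Pomt1 (edgeR adjusted p = 0.0014). Sdc2, a syndecan, had 4.90, 4.20 and 3.90 TPM in TKO-2i and 2.62, 2.96 and 2.88 TPM in TKO-serum, a log2 change of 0.72 (edgeR adjusted p = 0.00048). Bcam, a receptor for the Lama5 chain, was the exception among the larger changes, at 32.1, 32.3 and 30.7 TPM in TKO-2i and 56.2, 57.8 and 56.6 TPM in TKO-serum, a log2 change of -0.63 (edgeR adjusted p = 0.00023).

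Inside the cell, 30 of 31 adaptors that link integrins to actin and signalling were tested, and 24 were called (80%, beside 62.5% of all genes), 9 higher and 15 lower (31.9% and 30.6% of all genes), with a median of -0.09. With limma on TPM the medians were -0.20 for log2(TPM + 1) and -0.23 for log2(TPM + 0.1), and 19 were called at either pseudocount, 6 higher and 13 lower. Over all genes those medians were -0.06 and -0.08, and 10048 and 10043 of 18177 were called. Actn4, an actin crosslinker and the most abundant, fell from 221, 235 and 235 TPM in TKO-serum to 147, 162 and 141 TPM in TKO-2i (log2 fold change -0.56, edgeR adjusted p = 3.5e-05). Fermt1, the epithelial kindlin, was at 0.0480, 0.0435 and 0.0783 TPM in TKO-2i and 1.37, 1.5 and 1.70 TPM in TKO-serum, a change of -4.34 on the log2 scale (standard error 0.21, edgeR adjusted p = 6.5e-07). The kindlin used in most cells, Fermt2, was far above it at 59.5, 65.1 and 58.2 and 62.1, 68.1 and 62.2 TPM and was not called (edgeR adjusted p = 0.76), a comparison chosen after the values were seen. Ptk2b, a kinase related to focal adhesion kinase, had 1.15, 1.38 and 1.43 TPM in TKO-2i and 6.02, 6.27 and 6.92 TPM in TKO-serum, a change of -2.16 on the log2 scale (standard error 0.10, edgeR adjusted p = 6.1e-07). Bcar1, a docking protein of focal adhesions, had 7.98, 8.29 and 7.45 TPM and 25.4, 26.2 and 25.5 TPM, a change of -1.56 on the log2 scale (standard error 0.07, edgeR adjusted p = 6.3e-07). Tns1, a tensin that ties the beta chain's tail to actin, rose from 6.08, 6.17 and 6.51 TPM in TKO-serum to 14.6, 18.0 and 13.7 TPM in TKO-2i, a change of 1.52 on the log2 scale (standard error 0.06, edgeR adjusted p = 2.4e-07).

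Tetraspanins that accompany integrins in the membrane were called higher or not called. Of 5 tested, 3 were called (60%, beside 62.5% of all genes), 3 higher and 0 lower (31.9% and 30.6% of all genes), with a median of 0.65, so the share called was near that of all genes. Cd9, the most abundant, had 428, 365 and 394 TPM in TKO-2i and 241, 224 and 218 TPM in TKO-serum (log2 fold change 0.89, edgeR adjusted p = 8.3e-05). Cd63 had 259, 264 and 255 TPM and 126, 135 and 129.7 TPM (log2 fold change 1.11, edgeR adjusted p = 1.4e-06). Cd151, the closest partner of the laminin-binding integrins, had 40.5, 41.7 and 40.2 TPM and 27.6, 29.9 and 30 TPM (log2 fold change 0.65, edgeR adjusted p = 7.2e-05).

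**Figure D4:**
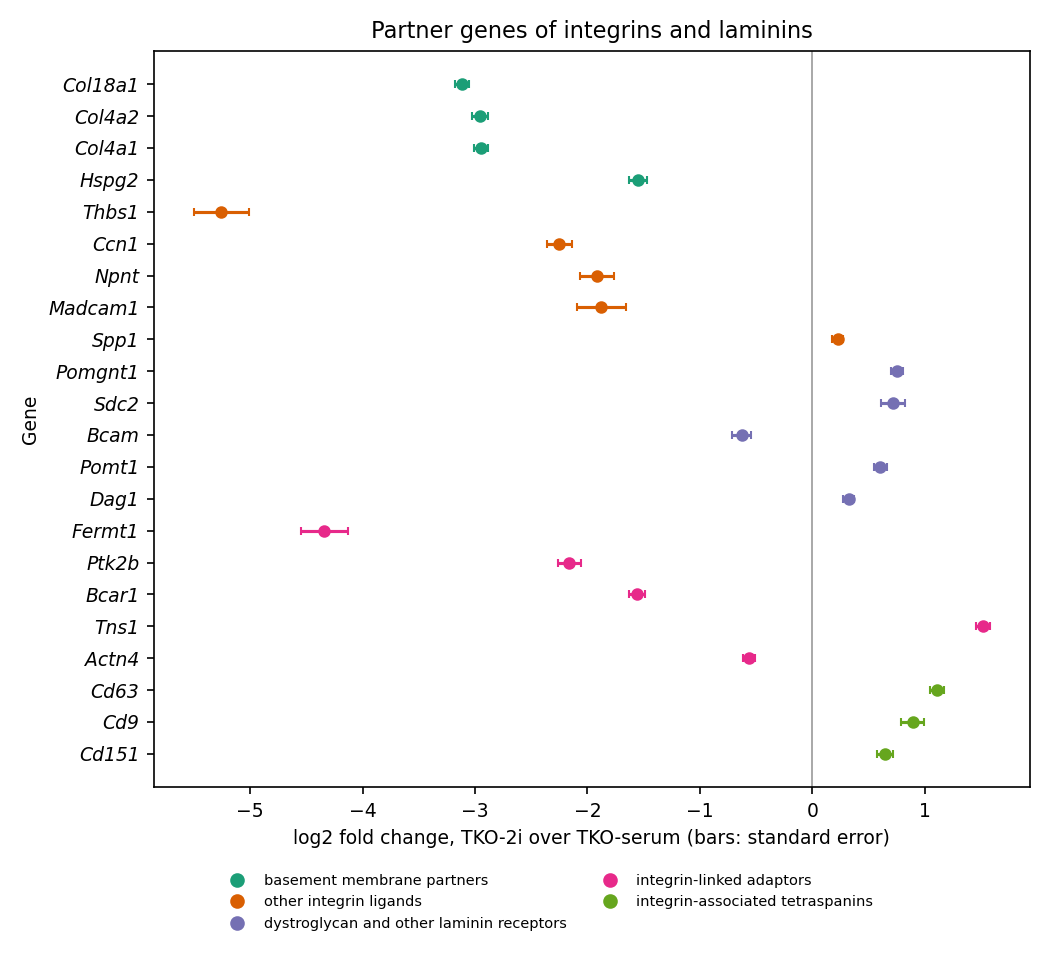
Log2 fold change of TKO-2i over TKO-serum for the named partner genes, coloured by list, with bars for the standard error of the edgeR fit (3 libraries a condition). The collagens shown, Thbs1 and Fermt1 lie at or left of -2.95, while the tetraspanins lie between 0.65 and 1.11.

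Markers of the labelled cell type and of others that a culture could hold were read from the same libraries, where 31.9% of all genes were called higher and 30.6% lower. The pluripotency genes Pou5f1, Sox2, Nanog, Zfp42 and Esrrb summed to 2526, 2499 and 2367 TPM in TKO-2i and 2773, 2847 and 2789 TPM in TKO-serum, led by Pou5f1 at a mean of 1017 and 1250.1 TPM, so cells of the labelled type were present in both conditions (5 of 5 tested, 2 called higher and 2 lower). Formative epiblast markers summed to 4.63, 4.89 and 4.43 TPM in TKO-2i and 38.4, 41.1 and 38.8 TPM in TKO-serum, led by Otx2 at a mean of 3.15 and 27.3 TPM (3 of 3 tested, 0 called higher and 3 lower). Mesendoderm markers summed to 21.4, 22.2 and 26.1 TPM in TKO-2i and 2.85, 3.09 and 3.07 TPM in TKO-serum, with T at a mean of 11.8 and 0.271 TPM (4 of 4 tested, 3 called higher and 0 lower). These lists moved with the laminin beta chains, one down and the other up, and their part in that result was not tested. Trophoblast markers summed to 4.39, 3.35 and 4.97 TPM in TKO-2i and 3.81, 3.76 and 3.18 TPM in TKO-serum, with Cdx2 at a mean of 3.42 and 0.195 TPM (5 of 6 tested, 1 called higher and 3 lower). Endothelial markers summed to 2.14, 2.77 and 2.27 TPM in TKO-2i and 7.97, 8.03 and 6.95 TPM in TKO-serum, led by Tek at a mean of 1.72 and 6.67 TPM, with Emcn at 0 in all libraries (3 of 4 tested, 0 called higher and 2 lower). Fibroblast markers summed to 6.10, 6.77 and 5.94 TPM in TKO-2i and 6.45, 7.03 and 6.5 TPM in TKO-serum, led by Thy1 at a mean of 3.40 and 4.57 TPM, with Dcn, Lum and Col3a1 under 1 TPM (4 of 7 tested, 1 called higher and 2 lower). Platelet markers summed to 1.29, 1.44 and 1.00 TPM in TKO-2i and 0.0280, 0 and 0 TPM in TKO-serum, with Pf4 at a mean of 1.25 TPM in TKO-2i and at 0 in TKO-serum, and Gp9 at 0 in all libraries (1 of 3 tested, 1 called higher and 0 lower). The marker tested was Pf4, which passed the filter through TKO-2i alone, so the direction of its call was fixed by the filter. Basal keratinocyte markers summed to 0.221, 0.199 and 0.233 TPM in TKO-2i and 0.524, 0.547 and 0.520 TPM in TKO-serum, with Krt14 at a mean of 0.0312 and 0.392 TPM (1 of 3 tested, 0 called higher and 1 lower). Of the leukocyte markers given above, 5 of 7 were tested, 2 were called higher and 2 lower.

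The inactivated genes were read as a check of the line. Dnmt1 transcripts had 29.1, 34.6 and 29.3 TPM in TKO-2i and 25.7, 28.6 and 27.9 TPM in TKO-serum. Dnmt3a had 4.30, 5.19 and 4.54 and 21.3, 23.0 and 22.7 TPM, and Dnmt3b 6.71, 9.53 and 8.49 and 18.8, 20.9 and 20.7 TPM. RNA of all 3 genes was thus present, and as a gene level does not show whether the disrupted part is transcribed, it does not check the inactivation.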

How the data were processed

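Estimated counts and TPM per transcript were used as deposited by the authors, from poly(A)-selected stranded paired-end libraries; the file layout is that of salmon, and the quantifier and its strand setting are not given in the sources used here. The submitters' notes name the mm10 build. The authors' estimated counts and TPM were summed per gene with GENCODE M21 (136100 of 136288 transcripts matched) and counts rounded to whole numbers. Depth was 38274042 to 51932739 estimated counts. Replicates correlated at 0.988 or more in log2 CPM, and the biological coefficient of variation was 0.090, so small fold changes could be called.

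edgeR 4.0.16 in R 4.3.3 was used with filterByExpr (minimum count 10), TMM factors and the quasi-likelihood test with condition alone, Benjamini-Hochberg adjusted over all 18177 genes; the fit was tested on simulated counts. Alternatives were a replicate block, DESeq2 1.42.0, its size factors, other filters, length-scaled TPM counts, limma 3.58.1 on log2(TPM + 1) and log2(TPM + 0.1), and leaving out each library. Chain shares, chromosome medians and sums carry no test, and transcript shares the exact permutation test (scipy 1.17.1). Named were members with a mean of at least 1 TPM in a condition (Lamb1 is given by TPM, share and fold only). From each list, among genes at that level, the 4 largest called changes and the most abundant gene were taken. Adjusted p-values are given for most of the named genes, and standard errors for only some. Nid1, Nid2, Sparc, Agrn, Icam1, Fn1, Mfge8 and Fermt2 were added after their values were seen, and scarcer members are given by counts. The naming rule took 37 genes, of which 1 is not reported here and enters no count or sum of members. Members and lists were chosen with earlier results of these data known. Listed genes scarce in a condition, such as Thbs1 and Fermt1, could also pass filterByExpr through the other condition alone. Protein sequences were not used here.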

Additional observations from a re-analysis of the deposited data

How the results depend on the processing

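Across the alternatives the integrin and laminin genes called numbered 16 to 24, beside 20 as reported, and 18 to 24 with a library left out. Of 280 alternative log2 fold changes of the 20 members with at least 1 TPM, 256 kept direction and call, 12 lost a call and 10 gained one. Itga5, not called, changed sign to -0.034 with limma on log2(TPM + 1) and -0.037 on log2(TPM + 0.1). With limma on log2(TPM + 1), whose pseudocount shrinks scarce genes, 3 members and 1746 genes in all were called at an absolute log2 fold change of at least 1, and with at least 10 counts in every library 2729 genes of 15556 tested. With limma on log2(TPM + 0.1), 4 members passed that size. The dystroglycan list had 9 calls with limma at either pseudocount, where 10048 and 10043 of all 18177 genes were called. The cause was not tested.

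On shares of CPM the difference in share was 3.80 points for Itga3, 2.59 for Itga5, -0.448 for Itgb1 (the opposite sign), -1.25 for Itgb5 and -0.715 for Itgb7, on a scale that does not adjust for transcript length; the cause was not tested. Shares of counts left 0 transcripts past the rule, and leaving out a library 1 to 9. With genes of a mean of at least 1 CPM, the median of chromosome 11 was 0.30 and the highest among other chromosomes holding members 0.082. Leaving out a library gave 0.23 to 0.28 for chromosome 11, -0.20 to -0.10 for the lowest and 0.032 to 0.047 for the highest of the other chromosomes holding members.

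A block for the replicate number gave 12539 called genes in all and 21 called members, and Lama5 was called at -0.16 (edgeR adjusted p = 0.038). Sparc, of the basement membrane list, was called higher with that block, at 0.14 (edgeR adjusted p = 0.030). Same-numbered libraries deviated from their group means with correlations of 0.242, 0.329 and 0.014, so the numbers were not taken as pairs; replicates 1 and 2 correlated best with their own number and replicate 3 did not. The libraries were sequenced in pools whose makeup is not given for each library, so whether pools followed condition is not known. The levels are of RNA: chain pairing, secretion and surface protein were not measured. Members under 1 TPM rest on few counts, and TPM of genes with short transcripts can rest on a few reads.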
